A study of Mus musculus with 4 samples.

Results

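The nuclear genes for the subunits of mitochondrial oxidative phosphorylation were compared between transgenic (TG) and wildtype (WT) mouse fibroblasts. Members were taken by gene symbol from the deposited expression matrix: names starting with Nduf and a letter a, b, c, s or v for complex I, Sdha to Sdhd for complex II, Uqcr and Cyc1 for complex III, Cox4 to Cox8 for complex IV and Atp5 for complex V. The rule matched 89 of the 23924 rows, and 85 of them had a mean above 0 over the 4 libraries. Of these 85 members, 39 belonged to complex I, 4 to complex II, 9 to complex III, 16 to complex IV and 17 to complex V. The names included 3 rows that RefSeq calls transcribed pseudogenes, *Ndufs5-ps*, *Ndufa11b* and *Cox7c-ps1*. The symbols of the subunits encoded in mitochondrial DNA matched 0 rows, and those subunits are not analysed here.

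The cells were tail tip fibroblasts of male littermates of the strain C57BL/6J-TgBAC8-2087. TG cells were Tg2087/+ and carried an X-inactivation center (*Xic*) sequence with *Xist*, the RNA that silences the inactive X chromosome, inserted in an autosome, and WT cells were +/+. Both genotypes had been immortalized with SV40 large T and were tetraploid, so neither was a normal diploid fibroblast. Polyadenylated RNA was sequenced in 2 libraries per genotype. The sources used here do not say whether libraries with the same genotype represent different animals or cultures, so the spread between them may be technical.

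Oxidative phosphorylation passes electrons from NADH (complex I) and succinate (complex II) through ubiquinone to complex III, then by cytochrome c to complex IV, which reduces oxygen. Complexes I, III and IV pump protons out of the mitochondrial matrix, and complex V, the ATP synthase, uses their return to make ATP. Most subunits are encoded in the nucleus and imported, and complex II is the only one of these complexes that also belongs to the citric acid cycle. Several complex IV and complex V subunits exist as isoforms that differ between tissues.

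The values are FPKM, fragments counted on a gene, divided by its length and by the size of the library, so levels can be set side by side between genes. Library totals worked out from the ratios of these values lay between 9465712 and 14639946 reads, with WT 2 the deepest, and the whole reads recovered gene by gene made up 99.38% to 99.46% of them. *Xist*, which checks the genotype labels, was at 0 and 0.108 FPKM in WT 1 and WT 2 and 2.31 and 2.28 in TG 1 and TG 2. The 10 fibroblast markers summed to between 5596 and 6007 FPKM in WT and between 5192 and 5642 in TG, with 1 of them at 0 in every library. Of the 8 markers tested, 5 (62.5%, beside 20.3% of all tested genes) lay lower in TG without overlap. Among the 5, 2 passed the test at an adjusted p under 0.05, *Col1a1* (log2 fold change -0.82, adjusted p = 0.0491) and *Pdgfrb* (-0.96, adjusted p = 0.0165). Another 2 (25%, beside 30.2% of all tested genes) lay higher in TG without overlap, *Vim* (0.15, adjusted p = 0.737) and *Pdgfra* (1.08, adjusted p = 0.218). The part of these markers in the results was not tested. Lists for 7 other cell types summed to 12.1 FPKM or less in every library, with 5 of 6 immune and 7 of 8 skeletal muscle markers at 0. The remaining skeletal muscle marker, *Acta1*, was at 11.1 and 9.75 FPKM in WT and 5.07 and 5.21 in TG. It was called lower (log2 fold change -0.95, limma adjusted p = 0.0374), beside 1.54% of all tested genes. The part of other cells in the results was not tested. In bulk RNA, fewer cells of a type and less RNA per cell cannot be told apart. For the test, log2(FPKM + 0.5) values of TG and WT were compared in limma, which fits a linear model to each gene and moderates its variance by a trend over all genes. Genes entered at a mean of 0.5 FPKM or more, 11524 in all, and p values were adjusted over these by the Benjamini-Hochberg method. This filter kept 83 of the 85 members and left out *Cox4i2* and *Cox6a2*. A permutation test of 2 libraries against 2 cannot give an exact p below 0.333.

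The tested members were higher in TG on the whole, by a small amount that went to 0.00 once the trend of each library with gene length was removed. Their fitted log2 fold changes had a median of 0.33 (quartiles 0.07 and 0.65), beside 0.07 (quartiles -0.18 and 0.34) over all tested genes, and 69 lay above 0 and 14 below. In 40 members (48.2%) both TG libraries lay above both WT libraries, against 30.2% of all tested genes. In 4 members (4.82%) both TG libraries lay below both WT libraries, against 20.3% of all tested genes, and these were *Ndufv2*, *Ndufa6*, *Ndufa4* and *Sdha*. The TG and WT values of the other 39 members overlapped.

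Few members passed the test one at a time. At an adjusted p under 0.01 with at least a 2-fold change, limma called 1 member higher in TG, *Cox7a1*, where 0.607% of all tested genes were called, and 0 members lower, where 0.469% of all tested genes were called. At an adjusted p under 0.05 it called 6 members higher, where the share of all tested genes was 2.59%, and 0 members lower, where the share was 1.54%. At an unadjusted p under 0.05, 30 members were higher, where the share of all tested genes was 12.7%, and 0 were lower, where it was 6.88%. The 6 called at an adjusted p under 0.05 were *Cox7a1*, *Ndufb4*, *Atp5l*, *Atp5g1*, *Ndufc1* and *Atp5g3*. On simulated reads with known changes, this fit made more false calls than an adjusted p of 0.05 allows. Over all genes, limma's higher and lower calls numbered 298 and 178, while upper-quartile scaling gave 231 and 200, quantile normalization 208 and 203, and voom on the whole reads 410 and 511.

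**Figure D1:**
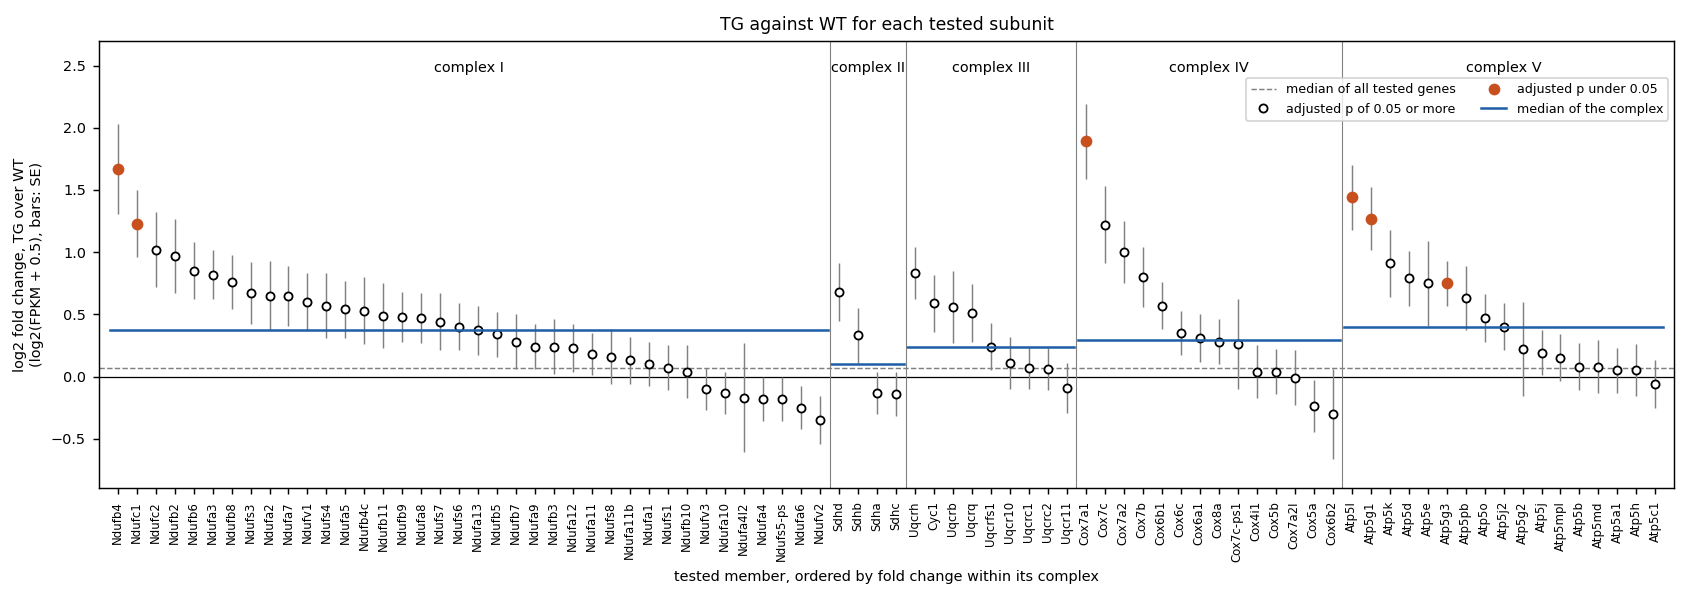
Log2 fold change of TG over WT on the log2(FPKM + 0.5) scale (y axis, bars are the SE of the limma fit) for 82 of the 83 tested members (x axis), grouped by complex, with a blue line at the median of each complex and a dashed line at 0.07, the median of all tested genes. The 6 filled points are the members with an adjusted p under 0.05, all above 0.

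The size of the shift changed when WT 2 was left out, and it varied with gene length. WT 2 was below WT 1 in 65 of the 83 members (78.3%, against 48.7% of all tested genes), with a median log2 difference of -0.29. The median position of the members against their own 4-library mean was -0.01 and -0.29 in WT 1 and WT 2 and 0.19 and 0.13 in TG 1 and TG 2 on the log2 scale. Both TG libraries thus stood above WT 1, and WT 2 stood further from WT 1 than TG 1 did. Without WT 2 the median fold change of the members was 0.20, limma called 0 of them at an adjusted p under 0.05, where 46 genes were called higher in all, and 16 had both TG libraries below WT 1. Without WT 1 the median was 0.42, with 4 calls among 86 over all genes, and without TG 1 or TG 2 it was 0.34 or 0.33, with 2 or 9 calls among 170 or 232. Lying below a single WT library is met more easily than lying below both, so the 16 members do not stand beside the 20.3% given earlier. The members took 1.22% and 1.06% of the reads of WT 1 and WT 2 and 1.34% and 1.35% of those of TG 1 and TG 2.

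**Figure D2:**
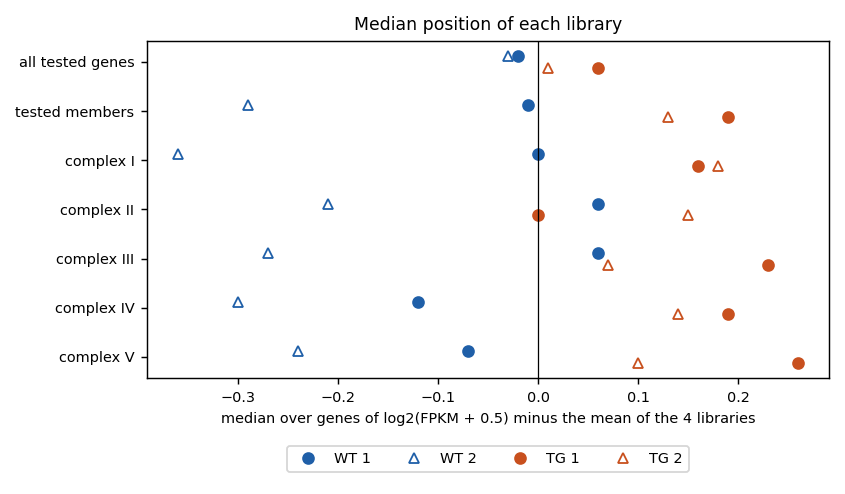
Median over genes of log2(FPKM + 0.5) minus the mean of the 4 libraries (x axis) for all tested genes, the tested members and each complex (y axis), with WT in blue, TG in orange, circles for library 1 and open triangles for library 2. For the members WT 2 lies at -0.29 and the other 3 libraries between -0.01 and 0.19, while for all tested genes the 4 libraries lie between -0.03 and 0.06.

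Oxidative phosphorylation subunits are mostly small proteins, and their transcripts were short. The effective length behind the FPKM values ran from 107 to 2778 bases with a median of 605 over the tested members, against a median of 2843 over all tested genes. Other short genes moved with the members. Among genes of 300 bases or less, the median log2 fold change was 0.75 over 11 members and 0.45 over 83 other genes, and between 300 and 600 bases it was 0.35 over 29 members and 0.41 over 350 other genes. Between 600 and 1200 bases it was 0.33 over 27 members and 0.23 over 1168 others, and between 1200 and 2400 bases it was 0.09 over 13 members and 0.15 over 3030 others. Above 2400 bases it was 0.07 over 3 members and 0.00 over 6810 others. The difference WT 2 minus WT 1 went with length as well, with a median of -0.42 over the non-member genes of 300 bases or less and 0.08 over those above 2400 bases. Across the 83 members, log2 length and log2 fold change had a Pearson correlation of -0.28 and a Spearman correlation of -0.27, and all points share the same 4 libraries.

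**Figure D3:**
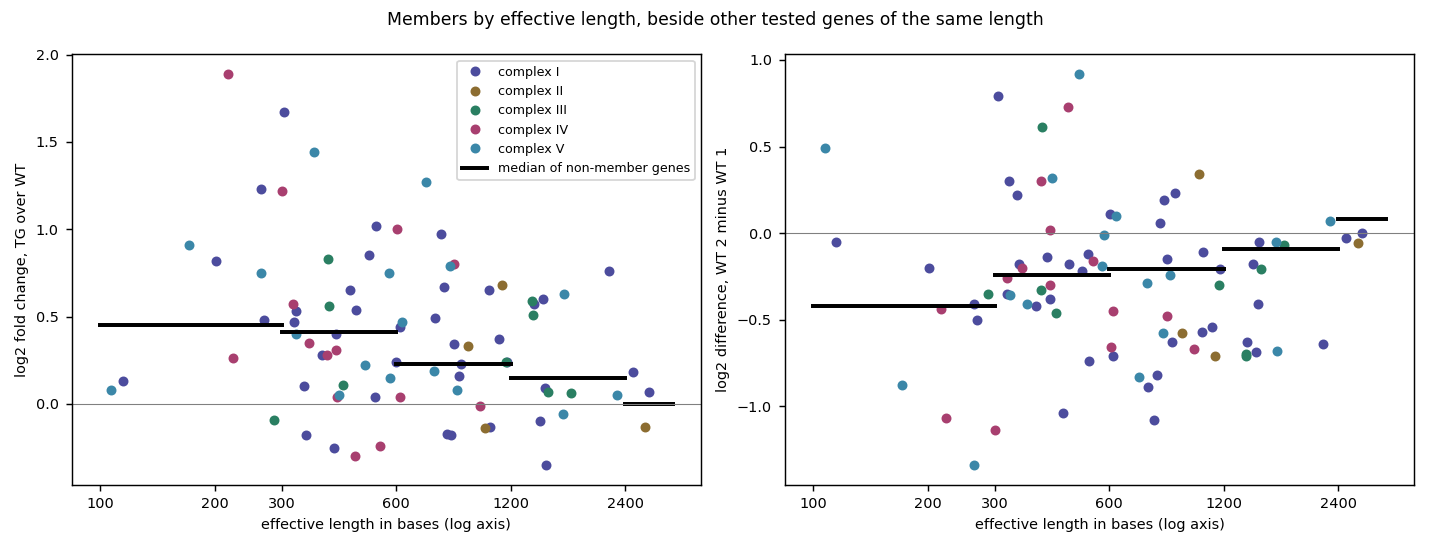
Log2 fold change of TG over WT (left panel) and log2 difference of WT 2 minus WT 1 (right panel) of each tested member against its effective length in bases on a log axis, coloured by complex, with black bars at the medians of the non-member genes of each length class. The bars fall from 0.45 to 0.00 with length on the left and rise from -0.42 to 0.08 on the right.

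With the trend of each library against effective length removed, an alternative chosen after seeing the data, the median fold change of the members was 0.00. That of all tested genes was 0.00 as well, but the adjustment sets it near 0 in advance, because the trend was fitted over all of them. On the adjusted values both TG libraries lay above both WT libraries in 25 members and below them in 21. The 30.2% and 20.3% of all tested genes given earlier are for unadjusted values, so they do not stand beside these counts. The medians were 0.04 for complex I, -0.05 for complex II, 0.04 for complex III, -0.13 for complex IV and -0.06 for complex V. Limma then called 2 members higher, *Cox7a1* (log2 fold change 1.33, adjusted p = 0.0396) and *Atp5g1* (0.98, adjusted p = 0.0491). The libraries had been size-selected on a gel, and the part of that step or of RNA quality in the length trend was not tested. Every fold change given below is the one before this adjustment.

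Of the 6 called members, 3 rested on few reads. *Cox7a1* encodes the heart and muscle isoform of a small complex IV subunit and lies at chr7:30184171-30186030 (GRCm38). Its FPKM was 1.46 and 0.944 in WT 1 and WT 2 and 6.57 and 5.0 in TG 1 and TG 2. These values stood for 3, 3, 17 and 12 reads, and the groups did not overlap. The log2 fold change was 1.89 (SE 0.30, limma adjusted p = 0.0077), and the ratio of the reads was 5.07-fold with a 95% interval of 2.07 to 14.9 for counting error only.

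*Ndufb4*, an accessory subunit in the membrane arm of complex I at chr16:37647602-37654368, had an FPKM of 0.693 and 1.57 in WT 1 and WT 2 and 3.57 and 5.63 in TG 1 and TG 2, from 2, 7, 13 and 19 reads. Both TG values were above both WT values (log2 fold change 1.67, SE 0.36, limma adjusted p = 0.0292). *Atp5l*, the g subunit in the membrane part of complex V at chr9:44913248-44920742, had an FPKM of 2.90 and 2.06 in WT 1 and WT 2 and 7.83 and 7.20 in TG 1 and TG 2, from 10, 11, 34 and 29 reads. Here too the groups were apart (log2 fold change 1.44, SE 0.26, limma adjusted p = 0.0138). Both transcripts share sequence with annotated copies elsewhere, over 40.2% of *Ndufb4* and 57.4% of *Atp5l* at 97% identity or more, so their reads could be split between places. In voom on the whole reads, which weights each gene by its read count, the adjusted p was 0.349 for *Cox7a1*, 0.411 for *Ndufb4* and 0.289 for *Atp5l*, and in limma without WT 2 it was 0.116, 0.11 and 0.162.

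The other 3 called members had more reads. *Ndufc1*, another small membrane-arm subunit of complex I at chr3:51405479-51408955, had an FPKM of 70.6 and 53.1 in WT 1 and WT 2 and 195 and 107 in TG 1 and TG 2. The groups did not overlap, but the 2 TG libraries differed from each other by more than the WT libraries did (mean 61.8 ± 12.3 in WT and 151 ± 62.1 in TG, SD, n = 2 each). The log2 fold change was 1.23 (SE 0.27, limma adjusted p = 0.0301) and voom gave an adjusted p of 0.00517. Over the alternatives the adjusted p of *Ndufc1* ran from 0.00378 to 0.301, the highest without WT 2.

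*Atp5g1* and *Atp5g3*, with *Atp5g2*, encode the same mature c subunit, which forms the rotating ring of complex V. *Atp5g1* had an FPKM of 26.0 and 14.4 in WT 1 and WT 2 and 47.8 and 47.1 in TG 1 and TG 2 (log2 fold change 1.27, SE 0.25, limma adjusted p = 0.0216). *Atp5g3* had an FPKM of 229 and 201 in WT 1 and WT 2 and 393 and 334 in TG 1 and TG 2 (log2 fold change 0.75, SE 0.18, limma adjusted p = 0.0466). For both genes every TG library was above every WT library, and voom gave adjusted p values of 0.00269 and 0.0119. The call of *Atp5g3* was kept with voom, a pseudocount of 1 or a mean FPKM of at least 1, and was lost in the other alternatives tried, with adjusted p values from 0.0503 (a pseudocount of 0.1) to 0.277 (without WT 2). That of *Atp5g1* was lost over all genes above 0 (adjusted p = 0.135), without a variance trend (0.103), with a replicate block (0.0592), without WT 2 (0.154) and without TG 1 (0.0544). *Atp5g2* had few reads, with 0.849 and 2.06 FPKM in WT and 1.68 and 1.63 in TG, and its values overlapped (log2 fold change 0.22, SE 0.38, adjusted p = 0.811). Near-identical copies cover 88.2% of the *Atp5g2* transcript, so its reads could be split between places. *Atp5g3* had the highest listed level of the 3 genes in all 4 libraries, and the 3 summed to 256 and 218 FPKM in WT 1 and WT 2 and 442 and 383 in TG 1 and TG 2.

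**Figure D4:**
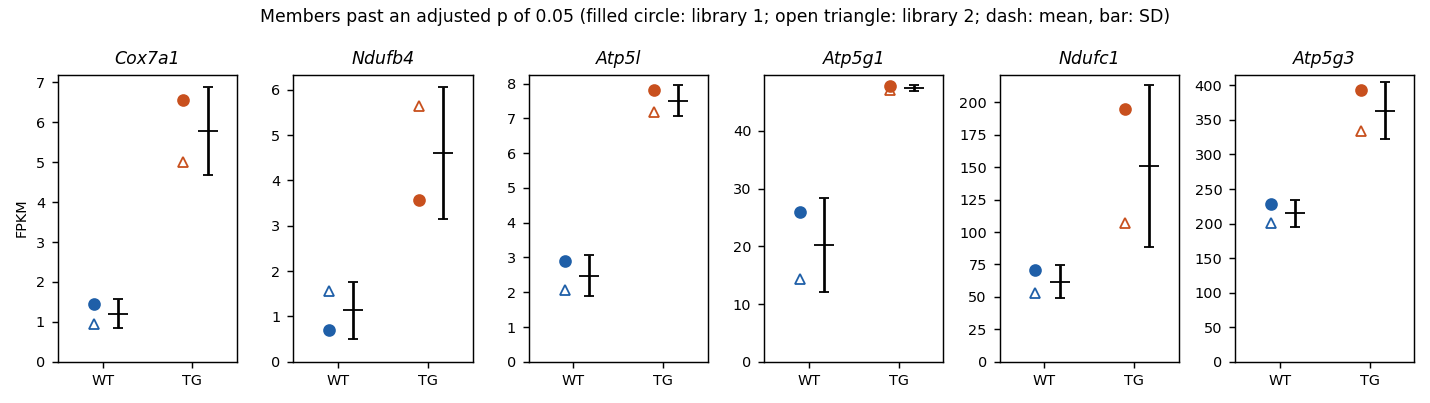
FPKM (y axis, linear from 0) in each library of the 6 members with an adjusted p under 0.05, with WT in blue and TG in orange, a filled circle for library 1, an open triangle for library 2, and a dash and bar for the mean and SD of 2 libraries. In each panel both TG points lie above both WT points, and *Cox7a1*, *Ndufb4* and *Atp5l* stay under 8 FPKM.

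The voom fit called 13 of the 83 tested members higher in TG at an adjusted p under 0.05. Over all 11524 tested genes it called 410 higher and 511 lower. Of the 13 members, 3 were also called on the log2 FPKM scale, *Atp5g1*, *Atp5g3* and *Ndufc1* (50% of the 6 and 23.1% of the 13). The other 10, named here because voom called them, were *Ndufa3*, *Ndufb2*, *Ndufb6*, *Ndufb8* and *Ndufc2* of complex I, *Uqcrh* of complex III, *Cox7a2* and *Cox7b* of complex IV and *Atp5d* and *Atp5k* of complex V. Their fitted log2 changes in voom lay between 0.71 for *Ndufb8* and 1.0 for *Ndufc2*. All 10 had both TG libraries above both WT libraries, and in the log2 FPKM fit their adjusted p values lay between 0.0512 (*Ndufa3* and *Cox7a2*) and 0.105 (*Ndufb2*). Of these, *Ndufb2*, *Ndufb6* and *Ndufb8* are accessory subunits in the membrane arm of complex I, and *Atp5d* is the delta subunit at the central stalk of complex V. *Ndufb2* was at 50.5 and 23.7 FPKM in WT and 76.9 and 60.8 in TG, *Ndufb6* at 60.5 and 51.7 in WT and 129 and 78.9 in TG, and *Ndufb8* at 78.0 and 49.8 in WT and 109 and 102 in TG. *Atp5d* was at 419 and 280 FPKM in WT and 645 and 542 in TG. In all 4 the lowest library was WT 2. Every member called in either fit was higher in TG.

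The core of complex I carries the flavin and the iron-sulphur clusters that take electrons from NADH to ubiquinone. None of its 7 subunits passed the test, and their median log2 fold change was 0.16. *Ndufv1*, which binds NADH and the flavin, had an FPKM of 78.3 and 48.3 in WT 1 and WT 2 and 91.2 and 95.8 in TG 1 and TG 2 (log2 fold change 0.60, SE 0.23, adjusted p = 0.178). *Ndufs3* was similar in direction, at 34.2 and 19.1 FPKM in WT and 44.1 and 38.3 in TG (0.67, SE 0.25, adjusted p = 0.179), and 75.7% of its transcript has a near-identical copy. In both genes the groups were apart and WT 2 was the lowest library.

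*Ndufv2*, the partner of *Ndufv1* in the NADH-oxidising module, lay the other way, with an FPKM of 288 and 278 in WT 1 and WT 2 and 196 and 250 in TG 1 and TG 2 (log2 fold change -0.35, SE 0.19, adjusted p = 0.328). This was the most negative fold change among the tested members. Values overlapped between genotypes in the core subunits that follow. *Ndufs1*, the largest subunit of the complex, ran from 34.5 to 40.5 FPKM over the libraries (0.07, SE 0.18). *Ndufs7* and *Ndufs8*, which hold the last iron-sulphur clusters before ubiquinone, had fold changes of 0.44 (SE 0.23) and 0.16 (SE 0.22) on the log2 scale, with WT 2 lowest in both, at 67.6 and 94.4 FPKM.

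The 32 other rows of complex I had a median log2 fold change of 0.39, and in 18 of them (56.2%, beside 30.2% of all tested genes) TG was above WT. Effective lengths ran from 115 to 2512 bases over these rows and from 614 to 2778 over the 7 core subunits. The 2 sets were not compared at equal length. The highest level in the complex was that of *Ndufa3*, a small accessory subunit, at 1091 and 949 FPKM in WT 1 and WT 2 and 1640 and 1979 in TG 1 and TG 2 (log2 fold change 0.82, SE 0.20, adjusted p = 0.0512). Its effective length was only 202 bases, and FPKM of very short genes depends strongly on the length used. *Ndufb10* came next, at 976 and 899 FPKM in WT and 837 and 1110 in TG, and did not separate the genotypes (0.04, SE 0.21). *Ndufa3* was above *Ndufb10* within each of the 4 libraries, although their ranges over the libraries overlapped.

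*Ndufc2*, which pairs with *Ndufc1* in the membrane arm, followed the same order of libraries as *Ndufc1*, with 109 and 65.0 FPKM in WT 1 and WT 2 and 232 and 127 in TG 1 and TG 2 (log2 fold change 1.02, SE 0.30, adjusted p = 0.0883). *Ndufa6* and *Ndufa4* lay lower in TG. *Ndufa6*, an accessory subunit, was at 150 and 136 FPKM in WT and 115 and 125 in TG (-0.25, SE 0.17, adjusted p = 0.468). *Ndufa4*, now counted by many authors as a complex IV subunit, was at 604 and 533 FPKM in WT and 498 and 504 in TG (-0.18, SE 0.18, adjusted p = 0.645). Neither difference passed the test. *Ndufa4l2*, the paralogue of *Ndufa4* that is induced by hypoxia, was at 1.43 and 1.51 FPKM in WT and 0.617 and 2.22 in TG, at most 2.22 FPKM beside at least 498 for *Ndufa4*.

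**Figure D5:**
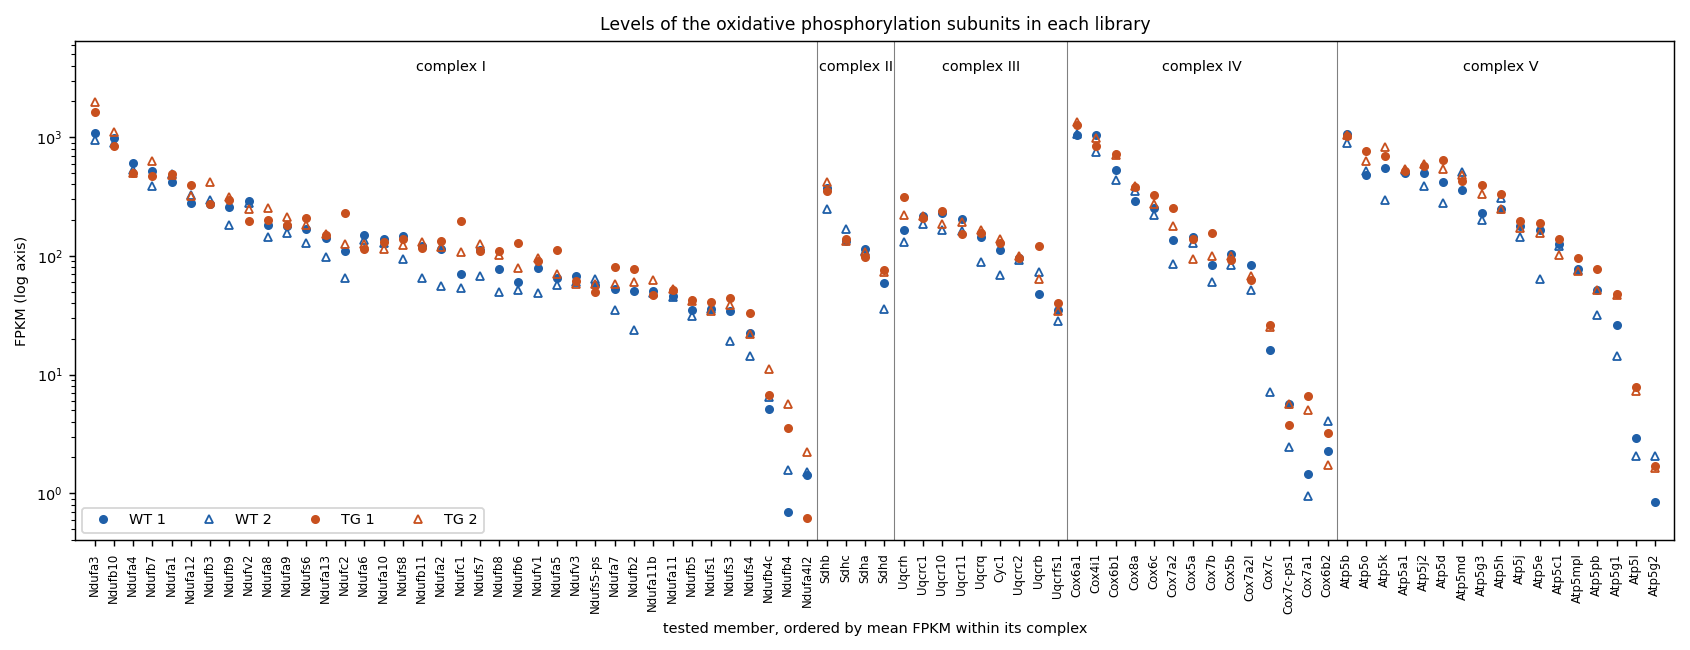
FPKM on a log axis (y axis) of 82 of the 83 tested members (x axis), grouped by complex and ordered by mean FPKM within it, with WT in blue, TG in orange, filled circles for library 1 and open triangles for library 2. The levels run from 0.617 FPKM for *Ndufa4l2* in TG 1 to 1979 FPKM for *Ndufa3* in TG 2, and WT 2 is the lowest point of many columns.

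Complex II had the smallest median of the 5 complexes, a log2 fold change of 0.10, and 0 of its 4 subunits passed the test. *Sdha*, the flavoprotein that oxidises succinate, was at 115 and 110 FPKM in WT and 97.1 and 108 in TG, so that TG was below WT by a small margin (-0.13, SE 0.17, adjusted p = 0.736). *Sdhb*, the iron-sulphur subunit, was at 371 and 249 FPKM in WT and 349 and 418 in TG (0.33, SE 0.22, adjusted p = 0.458), and its groups overlapped. The membrane anchors differed from each other in sign. *Sdhc* was at 134 and 169 FPKM in WT and 139 and 133 in TG (-0.14, SE 0.18, adjusted p = 0.720). *Sdhd* was at 59.2 and 36.0 FPKM in WT and 75.7 and 73.0 in TG (0.68, SE 0.23, adjusted p = 0.135), and here the groups were apart. The difference between the 4 subunits was not tested.

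In complex III the median log2 fold change was 0.24, and 3 of 9 subunits (33.3%) had TG above WT, beside 30.2% of all tested genes. *Cyc1*, the cytochrome c1 that hands electrons to cytochrome c, had an FPKM of 113 and 69.2 in WT 1 and WT 2 and 129 and 139 in TG 1 and TG 2 (0.59, SE 0.23, adjusted p = 0.186). *Uqcrfs1*, the Rieske iron-sulphur protein, was at 34.7 and 28.0 FPKM in WT and 39.8 and 34.1 in TG, which overlapped (0.24, SE 0.19, adjusted p = 0.554). The core proteins had fold changes near 0. *Uqcrc1* ran from 187 to 217 FPKM over the 4 libraries (0.07, SE 0.17) and *Uqcrc2* from 91.8 to 99.9 (0.06, SE 0.17).

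The largest difference in complex III was in *Uqcrh*, the acidic hinge protein beside cytochrome c1. It was at 165 and 132 FPKM in WT 1 and WT 2 and 313 and 221 in TG 1 and TG 2, with no overlap (0.83, SE 0.21, adjusted p = 0.0572). *Uqcrq*, a small subunit near cytochrome b, was at 143 and 88.3 FPKM in WT and 157 and 165 in TG (0.51, SE 0.23, adjusted p = 0.246). *Uqcr10*, a further small subunit, was at 228 and 165 FPKM in WT and 237 and 186 in TG, and its groups overlapped (0.11, SE 0.21, adjusted p = 0.827).

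Complex IV showed which isoforms these fibroblasts used. *Cox4i1*, the widely expressed form of subunit 4, was at 1036 and 756 FPKM in WT and 841 and 979 in TG (log2 fold change 0.04, SE 0.21, adjusted p = 0.945), whereas *Cox4i2*, the form known from lung and hypoxia, was at 1.10 and 0.236 in WT and 0.435 and 0 in TG. *Cox6a1* was at 1052 and 1068 FPKM in WT and 1277 and 1355 in TG (0.31, SE 0.19, adjusted p = 0.405), beside 0.402 FPKM or less for its heart and muscle isoform *Cox6a2*. The general form was the abundant one in both pairs and in both genotypes. *Cox6b1* was at 526 and 440 FPKM in WT and 718 and 711 in TG (0.57, SE 0.19, adjusted p = 0.123), and its testis isoform *Cox6b2* lay between 1.74 and 4.09 FPKM with overlapping groups (-0.30, SE 0.36).

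*Cox7a2* is the general counterpart of *Cox7a1* and was far higher than it, at 135 and 85.1 FPKM in WT 1 and WT 2 and 255 and 180 in TG 1 and TG 2 (log2 fold change 1.0, SE 0.25, adjusted p = 0.0512). *Cox7a2l*, a related protein that helps to build supercomplexes of complexes III and IV, was at 83 and 52.0 FPKM in WT and 62.9 and 67.5 in TG (-0.01, SE 0.22, adjusted p = 0.984). Of these 3 relatives, in the log2 FPKM fit, *Cox7a1* passed the test on 35 reads over the 4 libraries and *Cox7a2* narrowly missed it on 4571. In voom the order was the other way, with an adjusted p of 0.00301 for *Cox7a2* and 0.349 for *Cox7a1*. *Cox7a2l* overlapped between genotypes. *Cox7c*, another small subunit, was at 16.2 and 7.06 FPKM in WT and 26.0 and 25.3 in TG (1.22, SE 0.31, adjusted p = 0.0574), with near-identical copies over 58.3% of its transcript. *Cox7b* was at 84.2 and 60.3 FPKM in WT and 157 and 99.2 in TG (0.80, SE 0.24, adjusted p = 0.0989), and *Cox8a* was at 288 and 353 in WT and 383 and 388 in TG (0.28, SE 0.18, adjusted p = 0.458). The testis or muscle forms *Cox7b2*, *Cox8b* and *Cox8c* were listed at 0 in every library, which allows up to 3 reads per library for counting error only. The median over all 14 tested rows of complex IV was 0.29.

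In complex V the median log2 fold change was 0.40. Of the 5 subunits grouped here as the catalytic head with its central stalk, *Atp5a1*, *Atp5b* and *Atp5c1* had fold changes near 0. *Atp5a1*, the alpha subunit, was at 503 and 528 FPKM in WT and 524 and 542 in TG (0.05, SE 0.18, adjusted p = 0.914), and *Atp5b*, the catalytic beta subunit, was at 1057 and 897 in WT and 1016 and 1038 in TG (0.08, SE 0.19, adjusted p = 0.875). *Atp5c1*, the gamma subunit that forms the central stalk, was at 125 and 121 FPKM in WT and 138 and 101 in TG (-0.06, SE 0.19, adjusted p = 0.90). All 3 overlapped between genotypes. *Atp5d* and *Atp5e* of the same group had larger fold changes. For *Atp5d* it was 0.79 (SE 0.22, adjusted p = 0.0797), with the groups apart. *Atp5e*, named here because it belongs to this group, was at 164 and 64.4 FPKM in WT and 191 and 157 in TG. Its groups overlapped (0.75, SE 0.34, adjusted p = 0.262).

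The 7 stalk and membrane subunits of complex V all had a log2 fold change above 0, with a median of 0.47, and in 5 of them (71.4%, beside 30.2% of all tested genes) TG was above WT. Their effective lengths ran from 171 to 1659 bases. Non-member genes had medians of 0.45 at 300 bases or less, 0.41 up to 600, 0.23 up to 1200 and 0.15 up to 2400. In each of these classes 65.2% to 75.4% of the non-member genes lay above 0. The part of length in the values of this group was not tested. *Atp5k*, the e subunit, had an FPKM of 546 and 296 in WT 1 and WT 2 and 694 and 821 in TG 1 and TG 2 (0.91, SE 0.27, adjusted p = 0.0894). *Atp5o*, the protein that joins the head to the outer stalk, was at 484 and 520 FPKM in WT and 766 and 634 in TG (0.47, SE 0.19, adjusted p = 0.198), with a near-identical copy over 76.7% of its transcript. In both, the groups were apart, and neither passed the test.

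Some members share sequence with copies elsewhere in the genome. *Ndufs5*, an accessory subunit of complex I at chr4:123712710-123718186 in RefSeq, was listed at 0 FPKM in every library, while *Ndufs5-ps*, its processed pseudogene on chromosome 16, was listed at 56.6 and 64.4 FPKM in WT 1 and WT 2 and 49.4 and 57.5 in TG 1 and TG 2. The pseudogene matches the coding sequence over 319 of its 321 bases with 2 differences (99.4% identity), T81C and A105G, counted from 1 at the A of the start codon with the gene's base first. Bases 36 to 125 of the coding sequence are shown for both, because they hold the 2 places of the aligned coding sequence where a read could tell them apart, from the GENCODE vM21 transcripts of GRCm38 (chr4:123712710-123718202, minus strand, and chr16:42955631-42955949, plus strand), with the differing bases in capitals.
Ndufs5: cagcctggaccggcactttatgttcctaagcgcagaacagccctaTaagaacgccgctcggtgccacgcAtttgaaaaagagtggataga
Ndufs5-ps: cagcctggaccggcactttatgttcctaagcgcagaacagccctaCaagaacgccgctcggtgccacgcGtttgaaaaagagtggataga
The pseudogene row did not separate the genotypes (log2 fold change -0.18, SE 0.18, adjusted p = 0.647), and which of the loci its reads came from was not tested.

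Of the 85 members, 84 had a transcript that was searched against the annotated transcripts, *Ndufs5-ps* being the exception. Copies of at least 100 bases at 97% identity or more were found for 17 of the 84, and all 17 were tested. Their median log2 fold change was 0.47, and TG was above WT in 8 of them (47.1%). The 65 tested members for which none was found had a median of 0.33, and TG was above WT in 32 of them (49.2%), beside 30.2% of all tested genes. *Ndufb4c*, which matches *Ndufb4* over its whole annotated transcript and is named here for that match, was at 5.17 and 6.48 FPKM in WT and 6.67 and 11.1 in TG (0.53, SE 0.27, adjusted p = 0.312). Reads of *Ndufb4* and *Ndufb4c* may be exchanged between the rows.

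Promoter sequence was examined because nuclear respiratory factor 1 (NRF1), the ETS factor GABP and YY1 are known regulators of respiratory chain genes. The RefSeq promoter table of GRCm38.p6, with 250 bases before and 50 after each start, held 70 promoters of 65 members. The letters GCGCANGCG (NRF1) occurred on either strand in 28.6% of them and in 6.25% of all 32851 promoters, CCGGAAG (ETS) in 24.3% and 8.86%, and AAGATGGCG (YY1) in 10.0% and 1.4%. At least 1 of the 3 was present in 51.4% of the member promoters and in 14.8% of all. Some members have more than 1 promoter in the table, and a match of letters is a description, not a binding site.

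The 250 bases before the start are shown for the member with the smallest p, *Cox7a1*, for *Ndufb4* and *Atp5l*, which were also called, and for *Cox6a1*, an abundant general subunit, to show promoters with and without these letters, with the matches in capitals and each sequence written toward the gene. They lie at chr7:30183921-30184170 (plus strand), chr16:37654369-37654618 (minus), chr9:44920743-44920992 (minus) and chr5:115348959-115349208 (minus).
Cox7a1: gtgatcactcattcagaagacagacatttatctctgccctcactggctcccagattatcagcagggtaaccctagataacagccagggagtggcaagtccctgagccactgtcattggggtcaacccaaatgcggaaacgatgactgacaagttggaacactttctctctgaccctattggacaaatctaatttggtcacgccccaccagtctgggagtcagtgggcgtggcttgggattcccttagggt
Ndufb4: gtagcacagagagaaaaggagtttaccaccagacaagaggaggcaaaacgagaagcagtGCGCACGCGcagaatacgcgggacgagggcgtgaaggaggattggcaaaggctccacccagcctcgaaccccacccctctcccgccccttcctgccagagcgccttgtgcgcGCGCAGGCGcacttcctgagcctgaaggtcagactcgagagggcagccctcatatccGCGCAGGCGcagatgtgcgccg
Atp5l: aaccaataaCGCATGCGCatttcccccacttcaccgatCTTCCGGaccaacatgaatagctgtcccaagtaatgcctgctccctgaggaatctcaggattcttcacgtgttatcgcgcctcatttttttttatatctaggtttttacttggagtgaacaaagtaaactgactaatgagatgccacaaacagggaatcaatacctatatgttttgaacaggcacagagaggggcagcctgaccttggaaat
Cox6a1: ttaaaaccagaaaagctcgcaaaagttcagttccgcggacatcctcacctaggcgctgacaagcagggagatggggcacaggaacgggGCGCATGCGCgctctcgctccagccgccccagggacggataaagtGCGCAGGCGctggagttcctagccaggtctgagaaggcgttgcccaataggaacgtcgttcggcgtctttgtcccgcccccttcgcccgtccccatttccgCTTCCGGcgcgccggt
*Ndufb4* holds the NRF1 letters 191, 79 and 22 bases before the start, and *Atp5l* holds them at 241 bases and the ETS letters at 212. *Cox6a1* holds overlapping NRF1 matches at 162 and 161 bases on opposite strands, another at 117, and the ETS letters at 16. In this window *Cox7a1* holds none of the 3.

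Transcripts of the regulators themselves did not pass the test. *Nrf1* was at 8.06 and 7.19 FPKM in WT and 7.34 and 9.78 in TG (log2 fold change 0.15, SE 0.23, adjusted p = 0.779), and *Gabpa*, the DNA-binding part of GABP, was at 13.2 and 26.5 in WT and 23.8 and 21.7 in TG (0.27, SE 0.28, adjusted p = 0.653). *Esrra*, a nuclear receptor of the same programme, had a log2 fold change of 0.37 (SE 0.26, adjusted p = 0.479), and *Tfam*, which packs and transcribes mitochondrial DNA, one of 0.38 (SE 0.24, adjusted p = 0.434). The coactivators *Ppargc1a* and *Ppargc1b* were at 0.0421 FPKM or less and between 0.229 and 0.262 FPKM and were not tested. The 15 tested biogenesis regulators had a median of 0.22, and 0 passed the test.

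Other mitochondrial lists had medians between 0.07 and 0.33, and their calls below stand beside 2.59% of all tested genes called higher at an adjusted p under 0.05. The 44 tested assembly factors, which build the complexes without staying in them, had a median log2 fold change of 0.32, and 1 was called higher at an adjusted p under 0.05, *Ndufaf2*, a complex I factor, at 53.6 and 53.9 FPKM in WT and 109 and 84.8 in TG (0.84, adjusted p = 0.0333). The 78 mitochondrial ribosomal proteins had a median of 0.22, and 3 were called higher, *Mrps26*, *Mrpl52* and *Mrps22*, with log2 fold changes of 1.28, 1.26 and 1.0 (adjusted p = 0.0172, 0.0284 and 0.0161). The 7 tested adenine nucleotide and phosphate carriers, uncoupling proteins and porins had a median of 0.33, and the 16 tested electron carriers one of 0.19 with 0 calls, *Cycs* (cytochrome c) among them at 1.34 FPKM or less. *Cycs* was not searched for near-identical copies, so whether its reads were split between places was not tested. The 17 citric acid cycle and pyruvate dehydrogenase subunits, listed without complex II, had a median of 0.07, equal to that of all tested genes, and 0 calls. No gene of these 6 lists was called lower. Gene length, with which fold changes varied over all tested genes, was not taken into account in the medians of these lists.

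By position, the 6 members on chromosome 1, among them *Ndufs1* and *Sdhc*, had log2 fold changes between -0.14 and 0.24 with a median of 0.06, and all 6 overlapped between genotypes. The 3 members on the X chromosome, *Ndufa1*, *Ndufb11* and *Cox7b*, named for their position, had log2 fold changes of 0.10, 0.49 and 0.80, and in *Cox7b* the groups were apart. None of the 9 was called in the log2 FPKM fit, while voom called *Cox7b* (log2 fold change 0.77, adjusted p = 0.0219).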

How the data were processed

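The RNA-seq comprised 2 WT and 2 TG libraries sequenced in paired-end mode. The authors used Rsubread for alignment to mm10 and for gene counts, then turned the counts into FPKM. The deposited values are FPKM, with 1 column per library. The submitters' processing notes name DESeq for the authors' own tests, whose output was not used. Tool versions, the annotation and the handling of reads that match several places are not given in the sources used here. Libraries were assigned to WT and TG by their titles.

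Members were the rows whose symbols matched the rule, and 83 passed the filter of a mean FPKM of at least 0.5. TG was compared with WT by limma 3.58.1 in R 4.3.3 on log2(FPKM + 0.5) over 11524 genes (lmFit, and eBayes with its trend option), with Benjamini-Hochberg adjustment over all of them. Fold changes on this scale understate the change of low genes. Whole reads were recovered from the ratios of the FPKM values for 15528 of the 15530 genes above 0 (616 of them needed the exonic length to fix a common factor) and accounted for between 99.38% and 99.46% of each library. The most frequent gap between exonic and effective length was 149 bases. Library totals of 9465712 to 14639946 reads set the precision, and intervals on reads (exact, 95%) and the limit of 3 reads for a 0 cover counting error only.

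The members and lists were chosen with earlier results of these data known. Genes named are the members called, the 3 highest members of each complex, the 3 largest rises and falls of each complex without overlap, core subunits, isoform families, members under the filter, called genes of the related lists and 7 regulators or carriers. Others are named with the reason, and 1 member counted in every summary is not reported here by name. RefSeq (GRCm38.p6) gave positions and promoters, and GENCODE vM21 transcripts were searched for copies with BLAST 2.17.0. The fits were tested on simulated reads with known changes, where limma on log2(FPKM + 0.5) made more false calls than an adjusted p of 0.05 allows. Alternatives were pseudocounts of 1 and 0.1, a mean FPKM of at least 1 or all genes above 0, a fit without the variance trend, scaling to the upper quartile, quantile normalization, a replicate block, fits without each library, other assignments of members to complexes, voom on the recovered reads, and, chosen after seeing the data, log values with the trend on effective length removed (loess, span 0.3).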

Additional observations from a re-analysis of the deposited data

How the results depend on the processing

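Of 616 alternative values for 44 named members, 516 kept their direction and side of the adjusted p of 0.05, 40 lost the call, 15 gained it and 45 changed sign. With 2 libraries per genotype, few reads for 3 of the 6 called members and 1 library (WT 2) low in most members, counts of calls are not firm, while the median over the members stayed between 0.20 and 0.42 under every alternative except the removal of the length trend, where it was 0.00. The causes of these changes were not tested.

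Over all genes above 0, calls at an adjusted p under 0.01 and 2-fold were 0 higher and 1 lower, at an adjusted p under 0.05 they were 22 higher and 22 lower, and 0 members were called by either rule. Without a variance trend the strict calls were 3 higher and 6 lower, the others 153 higher and 101 lower, and 0 members were called by the strict rule and 2 by the other. Upper-quartile scaling gave 8 members with TG below WT and a median of all genes of 0.01. Quantile normalization gave 9 such members, a median of -0.01 and 0 strict member calls. Voom on whole reads gave 124 and 153 strict calls, 511 lower calls at an adjusted p under 0.05, 3 and 13 member calls, 8 members with TG below WT and a median of all genes of 0.01. With the length trend removed there were 28 strict and 151 other calls higher, 0 and 2 member calls, 25 members with TG above and 21 below WT, and medians of 0.00 for members and all genes, 0.04, 0.04, -0.13 and -0.06 for complexes I, III, IV and V.

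Leaving out each library in turn gave 0 to 66 higher and 1 to 47 lower strict calls, 46 to 232 higher and 20 to 135 lower calls at an adjusted p under 0.05, 0 to 1 strict and 0 to 9 other member calls higher, and 9 to 16 members with TG below WT. *Cox7a1* had no strict call without any 1 library (adjusted p from 0.0115 to 0.116), and the 1 strict member call, without TG 2, was that of *Ndufc1*. The median of all genes ran from 0.04 to 0.10 and that of complex II from 0.03 to 0.26. With 1 library left out, the lone library of an arm was assumed to vary like the other genotype. Groups that lie apart are then met more easily than with all libraries.

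With the replicate number as a block, strict calls over all genes were 12 higher and 8 lower, calls at an adjusted p under 0.05 were 114 higher and 64 lower, and 0 members were called by the strict rule, beside 5 at an adjusted p under 0.05. The differences WT 1 minus WT 2 and TG 1 minus TG 2 had a correlation of -0.028 over 11524 genes. The labels state no meaning for the replicate numbers, and this correlation cannot settle whether they stand for a pairing.

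Some log2 fold changes changed sign. Under upper-quartile scaling, quantile normalization, voom and length adjustment they were -0.02, -0.06, -0.02 and -0.06 for *Atp5a1*, -0.03, -0.13, -0.02 and -0.29 for *Cox4i1*, -0.03, -0.11, -0.02 and -0.32 for *Ndufb10* and -0.01, -0.08, -0.01 and -0.10 for *Uqcrc2*. Under quantile normalization they were also -0.03 for *Atp5b*, -0.01 for *Ndufs1*, -0.02 for *Uqcr10* and -0.08 for *Uqcrc1*. Under length adjustment they were also -0.18 for *Atp5b*, -0.16 for *Atp5g2*, -0.10 for *Cox6a1* and *Uqcrc1*, -0.15 for *Cox8a*, -0.09 for *Ndufs8* and -0.30 for *Uqcr10*. Over the left-out libraries, the range was -0.04 to 0.20 for *Atp5b*, -0.29 to 0.16 for *Atp5c1*, -0.24 to 0.68 for *Atp5g2*, -0.19 to 0.26 for *Cox4i1*, -0.67 to 0.07 for *Cox6b2*, -0.35 to 0.32 for *Cox7a2l*, -0.82 to 0.47 for *Ndufa4l2*, -0.16 to 0.25 for *Ndufb10*, -0.04 to 0.19 for *Ndufs1*, -0.15 to 0.48 for *Ndufs8*, -0.31 to 0.02 for *Sdhc*, -0.12 to 0.34 for *Uqcr10* and -0.04 to 0.18 for *Uqcrc1*.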
